A study of Mus musculus with 12 samples.

Results

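These results describe how cells of a scrambled control line changed over 4 days of differentiation in retinoic acid. The cells were R1, an established line of mouse embryonic stem cells, infected with a scrambled control hairpin, and they are the control arm of a study of knockdown of SET, a histone chaperone. A single line carried the control, so its arrays are replicate samples of that line, which the labels call biological replicates, and p-values measure only the spread between such samples. The members are the 4 arrays of 2 groups, out of 12 arrays in 6 groups. The ESC group (2 arrays) was kept growing on gelatin, with leukemia inhibitory factor (LIF) at 1000 U/ml and a serum content of 15%. The RA group (2 arrays) received retinoic acid at 1 µM for 4 days, in medium that lacked LIF and held 10% serum. Retinoic acid, the serum level and LIF therefore changed together, and their parts in any difference cannot be told apart. The remaining 8 arrays came from 2 SET knockdown lines, KD1 and KD2, in the same states, and they enter here only through the estimate of the spread.

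Retinoic acid is made from vitamin A by retinol and retinaldehyde dehydrogenases, binds the nuclear receptors RAR in heterodimers with RXR, and is cleared by CYP26 hydroxylases. The receptor pair sits on direct repeats of a short hexamer in DNA and switches genes on when the ligand is bound. Well known targets are the genes that clear retinoic acid, the receptor gene Rarb itself and the Hox genes, which mark position along the body axis. LIF holds mouse stem cells in the naive state through STAT3, and its removal lets them leave that state.

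Each array gave log2 intensities normalized by RMA, and of several probe sets for a gene the one with the highest mean was taken, which gave 19938 genes. A difference below is the mean of the 2 RA arrays minus the mean of the 2 ESC arrays in log2 units, so that 1 unit is a doubling. Levels of different genes come from different probes and are not compared. A gene was called higher or lower at a limma adjusted p below 0.05 with the spread pooled over the 8 arrays of the scrambled and KD1 lines. The KD2 line was left out of that spread because 1 array in each state resembled the other state. The array labelled ESC KD2 replicate 2 correlated at 0.9502 on average with the ESC scrambled arrays and at 0.9917 with the RA scrambled arrays. The array labelled RA KD2 replicate 2 correlated at 0.9914 with the ESC scrambled arrays and at 0.9477 with the RA scrambled arrays. The 4 arrays described here fell with their labels. The ESC pair correlated at 0.9921 over genes, the RA pair at 0.996, and pairs of different state between 0.9314 and 0.9445. The samples are bulk RNA, in which fewer cells of a type and less RNA per cell cannot be told apart.

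Differentiation moved a large share of the measured genes. With 8 arrays setting the spread, 4336 genes were called higher in RA, 21.7% of those tested, and 4149 lower, 20.8%. When all 12 arrays set the spread, the differences themselves were the same, but the calls numbered 1622 higher (8.14%) and 1129 lower (5.66%). The 4 scrambled arrays alone gave 3825 higher (19.2%) and 3520 lower (17.7%). Changes of at least 2-fold among the called genes numbered 1766 higher and 1036 lower, and those of at least 16-fold 45 higher and 8 lower. With each array centred on the median of its genes, the median difference of all genes moved by -0.194 log2 units and the split became 3270 higher and 7443 lower, so that higher genes went from 51.1% to 30.5% of the calls. Small rises are therefore read with caution below, and small falls as shifts relative to a background that depends on the scaling. In what follows, a share of a gene list is set against 21.7% and 20.8%, and the number of members also called by the 12-array spread is given beside most of them. That spread includes the KD2 arrays that resembled the other state, which add most spread to the genes that differ most between states. The 12-array count therefore cannot rank genes or lists by how firm their change is.

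**Figure D1:**
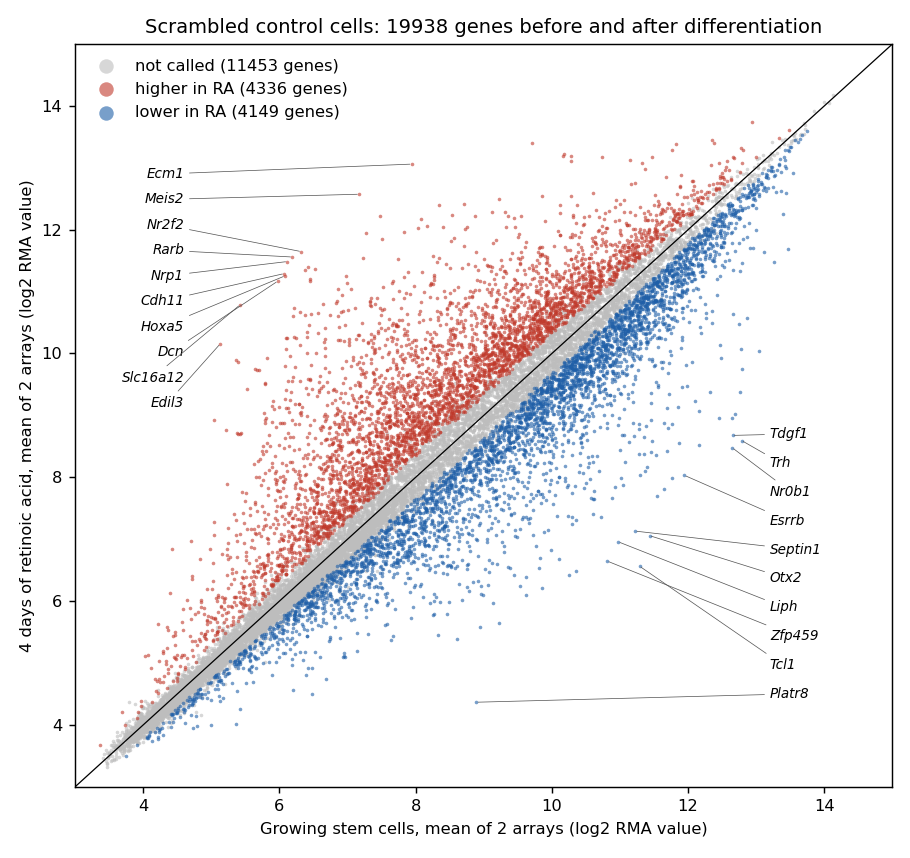
Mean log2 RMA value of 19938 genes over 2 ESC arrays (horizontal axis) and 2 RA arrays (vertical axis) of the scrambled control line; red genes were called higher in RA (4336), blue genes lower (4149) and grey genes were not called (11453), and the line marks equal values. The 10 genes with the largest rises and the 10 with the largest falls by the naming rule are labelled, and each lies over 3 log2 units off the line.

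The 15 largest rises joined retinoid response genes, homeobox genes and genes of the cell surface and matrix. Meis2, a homeobox partner of Hox proteins, read 7.64 and 6.70 in ESC and 12.50 and 12.64 in RA, a rise of 5.40 log2 units (SE 0.25). Rarb, the receptor gene that retinoic acid switches on, read 6.10 and 6.28 in ESC and 11.52 and 11.59 in RA, or 41.4-fold higher. Nr2f2, which encodes the orphan receptor COUP-TFII, read 6.44 and 6.20 in ESC and 11.45 and 11.85 in RA. These 3 genes stood near or below the median of all values, 7.22, on the ESC arrays and well above it on both RA arrays, with no overlap between the states. Hoxa5 rose by 5.17, Meis1 by 4.97, Cyp26a1 by 4.75 and Dhrs3, a retinaldehyde reductase, by 4.75. The surface and matrix genes were Nrp1, a co-receptor for semaphorins and VEGF (5.37), Cdh11, a mesenchymal cadherin (5.22), Dcn, the proteoglycan decorin (5.19), Ecm1 (5.12), Edil3, an integrin ligand (5.02), and P4ha3, a collagen prolyl hydroxylase (4.98). The transporter gene Slc16a12 (5.36) and Plat, tissue plasminogen activator (4.84), completed the group. Of these 15 genes, 9 were also called with the 12-array spread. Meis2, Rarb, Nr2f2, Hoxa5, Meis1 and Cyp26a1 missed it, at adjusted p between 0.0544 and 0.0633. With the 8-array spread their limma adjusted p was 1.03e-06 or lower, and missing the 12-array call does not rank them below the other 9.

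The 15 largest falls were led by Tcl1, a co-activator of the AKT kinase expressed in stem cells, which read 11.11 and 11.47 in ESC and 6.25 and 6.88 in RA, a change of -4.72 (SE 0.26). Platr8, a pluripotency-associated long noncoding RNA, stood at 9.42 and 8.36 in ESC and at 4.33 and 4.40 in RA. Otx2, a homeobox gene of the formative state and the anterior brain, went from 11.03 and 11.84 to 6.99 and 7.12. Trh, the thyrotropin-releasing hormone gene, went from 12.66 and 12.91 to 8.45 and 8.73. All 4 genes were bright in both ESC arrays, and each RA array lay over 3 units lower. Nr0b1 (-4.17), Esrrb (-3.91), Zfp42 (-3.85) and Tdgf1 (-3.98) belong to the naive network or its signals, and Spry4 (-3.84) is a feedback inhibitor of FGF signalling. The remaining 6 were Zfp459 (-4.17), Septin1 (-4.09), Liph (-4.02), Pipox (-3.86), Lrrc34 (-3.83) and Pfkp (-3.77), the platelet isoform of phosphofructokinase. Of the 15, 7 were also called with the 12-array spread.

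Of the 15 largest rises, 11 had a promoter window to search, and 2 of these windows, those of Rarb and Cyp26a1, carry the direct repeat that RAR and RXR are known to bind. They are printed for that reason. The search took the hexamer AGGTCA or its variants AGTTCA and GGGTCA or else the variant GGTTCA, each followed after 5 bases of any kind by another of them, on both strands. The windows were RefSeq promoter windows of build GRCm38.p6, from 250 bases before to 50 bases after each start site. Each line gives the 100 bases just before the window's start site, 5′ to 3′ on the gene's strand, with the repeat in capitals. A gene can have several start sites, and the window shown stands for 1 of them. Rarb lies on the minus strand, chr14:16575477-16575576, and Cyp26a1 on the plus strand, chr19:37697708-37697807.
Rarb: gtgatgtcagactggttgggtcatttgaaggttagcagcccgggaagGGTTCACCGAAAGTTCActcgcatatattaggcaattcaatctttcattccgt
Cyp26a1: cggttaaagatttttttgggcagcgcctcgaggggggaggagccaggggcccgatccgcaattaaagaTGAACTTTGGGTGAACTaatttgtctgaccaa
In Rarb the repeat lay 53 to 37 bases before the start site and on the gene's strand. In Cyp26a1 it lay 32 to 16 bases before it and read on the opposite strand as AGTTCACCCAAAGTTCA, so that both promoters hold the hexamer AGTTCA. Such repeats were rare: 32 of 32851 windows held one, 0.0974%. Among the 15614 genes with both a window and a value, 11 held the repeat, of which 3 were called higher, 1 lower and 7 not at all. Over all genes 21.7% were called higher and 20.8% lower, and 3 of 11 lies near the former share. The third one called higher was Ppbp, a platelet chemokine gene, which rose by 2.69. Of the 52 genes in the retinoid lists below, 38 had a window, and Rarb and Cyp26a1 were the 2 with the repeat. A match is a description of the letters and not a measured site.

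Of 20 measured genes that store, make, carry and clear retinoic acid, 10 were called higher and 3 lower. With the 12-array spread 4 of the 10 rises were called and none of the falls. The clearing enzyme Cyp26a1 read 6.50 and 6.40 in ESC and 11.51 and 10.89 in RA, and its relative Cyp26b1 rose by 3.28. Cyp26c1 was not called, at 0.02 (SE 0.12). Dhrs3, which returns retinaldehyde to retinol, read 7.62 and 7.34 in ESC and 12.27 and 12.18 in RA. The synthesis genes rose as well: Rdh10, the retinol dehydrogenase, by 2.46 and Aldh1a2, the retinaldehyde dehydrogenase of the embryo, by 2.86. Aldh1a1 rose by 0.98 from a dim level, whereas Aldh1a3 stood at 6.92 and 6.91 in ESC and at 6.92 and 6.91 in RA. Stra6, the membrane receptor for retinol binding protein, rose by 3.26 and Lrat, which esterifies retinol for storage, by 1.07. The 2 cellular retinoic acid binding proteins went opposite ways, Crabp2 up by 2.58 (SE 0.15) and Crabp1 down, at -1.05 (SE 0.27, adjusted p = 0.0113). The fall of Crabp1 was kept in 2 of the 4 fits that left out an array each.

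Among the receptors and their partners, 7 of 14 were called higher and 4 lower, and the 12-array spread called 1 and 2 of them. The 3 retinoic acid receptors differed in their direction and size of change. Rarb rose by 5.37 (SE 0.16, adjusted p = 1.59e-07). Rara, read at 10.14 and 10.26 in ESC and at 10.71 and 10.69 in RA, rose by 0.50. Rarg read 10.79 and 10.02 in ESC and 9.96 and 9.40 in RA, a difference of -0.72 (adjusted p = 0.0499) whose call was kept in 2 of the 4 fits without an array. Its ESC arrays differed by about as much as the states did. Of the partners, Rxra rose by 1.11, while Rxrb (-0.13) and the dim Rxrg (-0.71) were not called. The COUP-TF genes Nr2f1 (3.71) and Nr2f2 (5.33) and the co-repressor Nrip1 (2.34) rose. The 3 receptors of the naive network that the list also holds, Nr5a2 (-2.89), Esrrb (-3.91) and Nr0b1 (-4.17), fell.

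Of 19 genes known as retinoic acid targets, 9 were called higher and 2 lower, and 3 of the rises with the 12-array spread. Nrip1, counted above with the receptors, is among these rises too. Gata6, an endoderm and mesoderm factor, rose by 4.67 (SE 0.11). Foxa1 rose by 3.51, Stra8, the germ cell gene named for its response to retinoic acid, by 3.28, Wt1 by 2.75 and Tgm2, a transglutaminase long used as a readout of retinoids, by 2.64. The caudal genes Cdx1 (-0.05) and Cdx2 (-0.08) were not called, and Cdx4 fell by 0.36 from a dim level. Egr1, an immediate early gene, read 9.77 and 11.50 on the 2 ESC arrays, a gap that gave its difference of -0.04 an SE of 0.63.

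**Figure D2:**
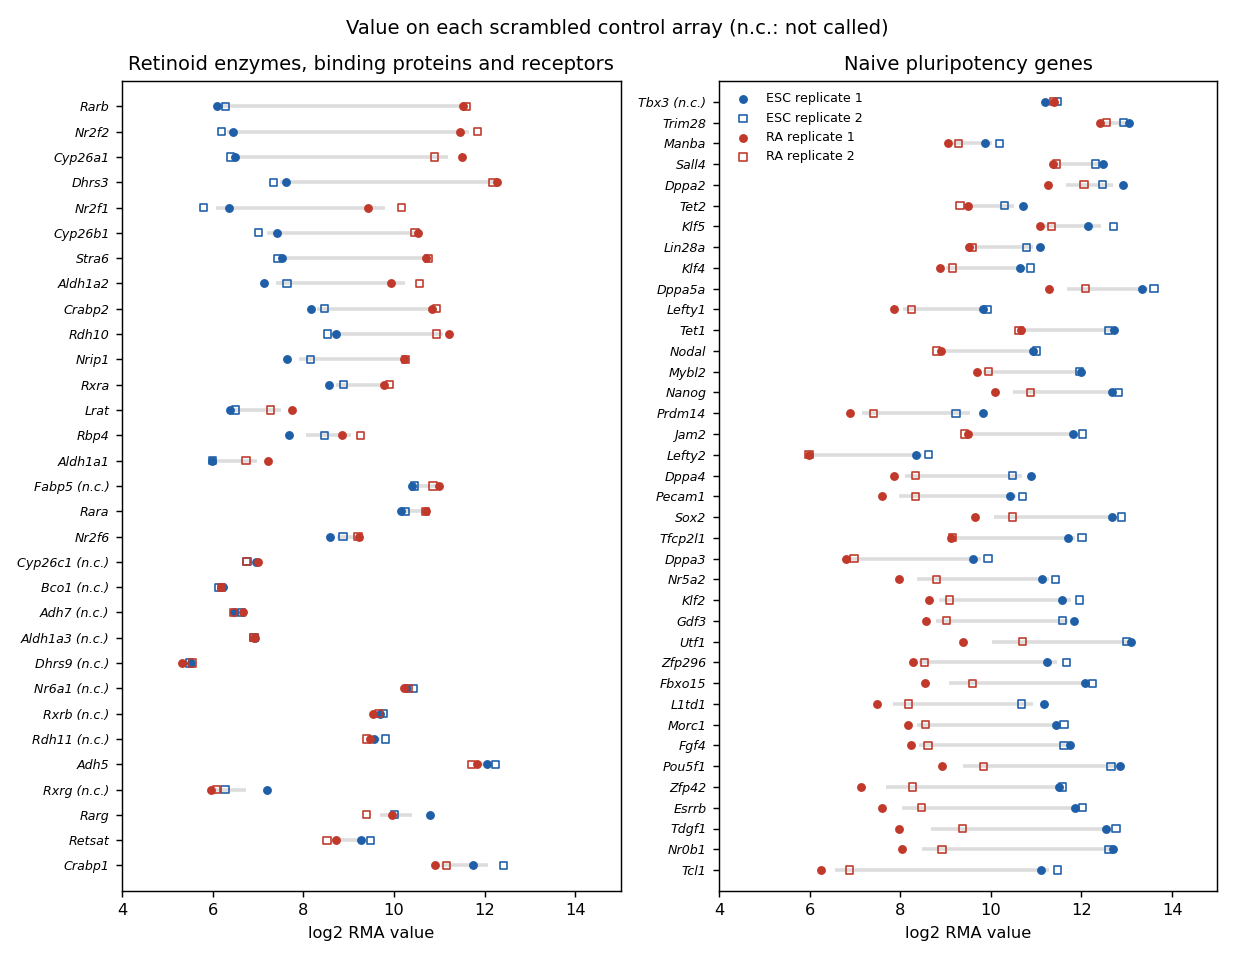
Log2 RMA value on each of the 4 scrambled control arrays (ESC blue, RA red; filled circles replicate 1, open squares replicate 2) for retinoid enzymes, binding proteins and receptors on the left and naive pluripotency genes on the right, ordered by difference; grey bars join the group means and n.c. marks genes that were not called. Rarb, Nr2f2, Cyp26a1 and Dhrs3 lie furthest to the right in RA relative to ESC, and in the naive panel all genes but Tbx3 lie lower in RA, most of them lower in RA replicate 1 than in replicate 2.

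Hox genes rose in all 4 clusters, and none was called lower, although 1 gene of the A cluster list was with arrays centred. Of 37 measured Hox genes, 31 were called higher (83.8%), and 12 of these also with the 12-array spread, 7 of them in the D cluster. The D cluster list had the lowest median, 0.76, against 0.93 in the A, 2.83 in the B and 1.94 in the C cluster list. The 12-array count does not rank the clusters by how firm their rise is. Hoxb2 read 6.73 and 6.56 in ESC and 10.75 and 10.84 in RA. Hoxc8 read 6.76 and 6.96 in ESC and 11.24 and 10.85 in RA. Hoxb13 read 5.95 and 6.23 in ESC and 10.29 and 9.86 in RA. In each of the 3 the states were separated by over 3 units, while arrays of a state lay within 0.5 of each other.

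By position in the cluster, all 14 measured genes of paralogue groups 1 to 5, the 3′ genes that mark the hindbrain and neck, were called higher, with differences from 0.78 to 5.17 and a median of 2.51. Groups 6 to 9, which mark the trunk, had 10 of 11 called, with a median of 1.12. Groups 10 to 13, which mark the lumbar to tail region, had 7 of 12 called, with a median of 0.63, and Hoxb13, at 3.98, stood well apart from the next of them, Hoxc10 at 0.89. The clusters differed in size of change. The A cluster ran from Hoxa5 at 5.17 through Hoxa3 at 3.15 and Hoxa2 at 2.91 down to Hoxa10 at 0.54, and Hoxa11 was not called (-0.24). In the B cluster Hoxb4 rose by 3.18, Hoxb9 by 2.98 and Hoxb1 by 2.08, and Hoxb7 was not called (0.17). In the C cluster Hoxc5 rose by 3.42 and Hoxc9 by 2.43, while Hoxc11, Hoxc12 and Hoxc13 were not called. In the D cluster 8 of 9 Hox genes rose, but by 0.71 to 2.00 units only, with Hoxd8 the highest. The genes Evx1 and Evx2, next to the A and D clusters, were not called (-0.11 and -0.27). Hox differences stayed positive for all 31 called genes when arrays were centred, with a median over the 37 of 0.92 in place of 1.12.

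**Figure D3:**
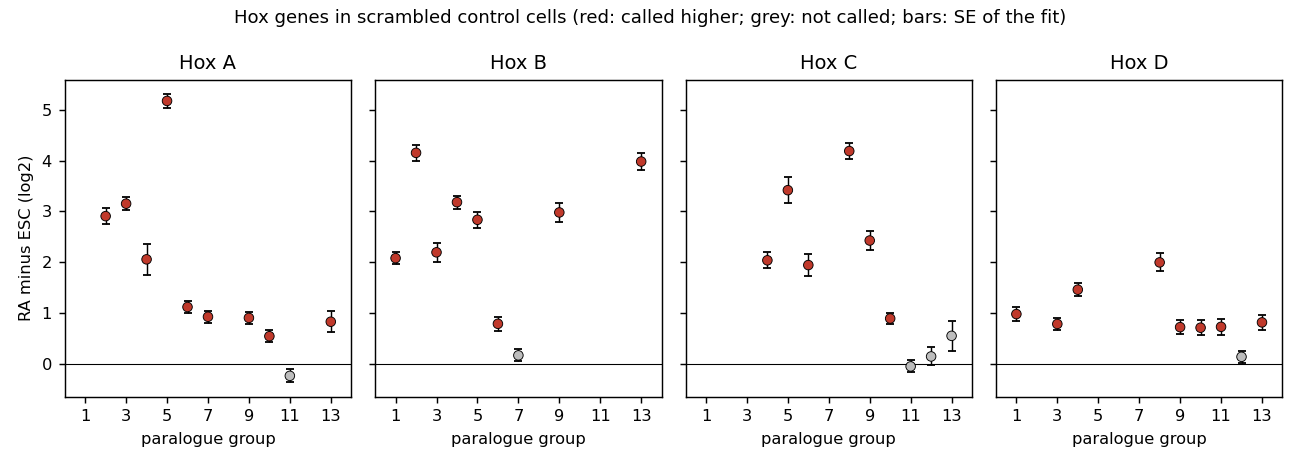
RA minus ESC difference in log2 RMA units for 37 Hox genes, by cluster (panels) and paralogue group (horizontal axis); bars are the SE of the 8-array fit, red points were called higher and grey points were not called. Paralogue groups 1 to 5 are all red, Hoxa5 at 5.17 is the highest point, and Hoxb13 at 3.98 is the highest among groups 10 to 13.

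TALE homeobox proteins bind DNA together with Hox proteins, and 10 of 17 measured genes of the class rose, 4 of them also with the 12-array spread, while Tgif1, a repressor, fell by 0.33. Beside Meis2 and Meis1, Meis3 rose by 1.97, Pknox2 by 2.03, Pbx2 by 1.41 and Pbx3 by 1.37. Pbx4 (0.08) and Pknox1 (-0.33) were not called. The Iroquois genes Irx3 (1.31), Irx5 (0.72), Irx4 (0.61) and Irx2 (0.46) rose, but the rise of Irx2 held in 2 of 4 fits without an array and was not called with arrays centred.

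Naive pluripotency genes fell, with 1 exception. Of 38 measured, 37 were called lower (97.4% against 20.8% of all genes) and none higher, 34 fell at least 2-fold, and all 37 were called in each of the 4 fits that left out an array. With the 12-array spread 22 were called. Pou5f1, which encodes OCT4, read 12.86 and 12.65 in ESC and 8.92 and 9.84 in RA. Nanog read 12.67 and 12.81 in ESC and 10.09 and 10.87 in RA. Sox2 read 12.66 and 12.88 in ESC and 9.66 and 10.47 in RA. The differences were -3.38 for Pou5f1, -2.26 for Nanog and -2.70 for Sox2, and all 3 genes stayed well above the table's median in both RA arrays. Zfp42 read 7.13 and 8.27 in RA, Esrrb 7.59 and 8.47, and Tcl1 6.25 and 6.88. Among the Krüppel-like factors Klf2 fell by 2.90, Klf4 by 1.76 and Klf5 by 1.22. Smaller falls were those of Sall4 (-0.98), Manba (-0.86) and the co-repressor Trim28 (-0.51). The exception, Tbx3, read 11.19 and 11.46 in ESC and 11.40 and 11.39 in RA.

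Formative and primed genes, which act in the epiblast between the naive state and gastrulation, mostly fell too, with 13 of 19 lower and 2 higher, of which the 12-array spread called 6 falls and neither rise. Otx2 (-4.38), Dnmt3l (-3.50), Zic5 (-3.26), Etv5 (-2.95), Foxd3 (-2.70) and Dnmt3b (-2.31) fell. Fgf5, the usual marker of the primed epiblast, read 8.35 and 8.36 in ESC and 8.46 and 8.78 in RA and was not called, nor were Dnmt3a (0.39) and Lin28b (0.07). The 2 that rose were Cdh2, N-cadherin (3.79), and Sall2 (0.86).

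In the LIF pathway 7 of 20 members rose and 7 fell, and the 12-array spread called 3 and 1. The falling ones were feedback and target genes of STAT3: Socs2 (-2.51), Socs3 (-1.28), Pim3 (-1.23), Bcl3 (-0.97), Pim1 (-0.73), Klf4 and Tfcp2l1. Receptors and kinases rose, with Cntfr at 8.93 and 8.48 in ESC and at 12.44 and 12.40 in RA, Jak2 up by 2.46, Osmr by 1.88, Jak1 by 0.93 and Il6st, the shared gp130 chain, by 0.69. Stat3 rose by 0.31, a call lost with arrays centred. Lifr itself (-0.15) and Myc (0.26) were not called. The ESC arrays were far apart at Socs3, at 9.79 and 10.83, and at Myc, at 11.53 and 10.67.

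Mesoderm factors rose in 18 of 31 cases and fell in 5, and 10 and 1 of these were called with the 12-array spread. The falls numbered 3 without RA replicate 1. Foxf1, a factor of splanchnic mesoderm, read 7.83 and 7.82 in ESC and 11.85 and 12.08 in RA, and Foxc2 rose by 4.53, Tbx18 by 3.81, Osr1 by 3.55, Isl1 by 3.05, Twist1 by 3.05, Tcf21 by 2.34 and Gata5 by 2.34. The streak and early mesoderm genes Eomes (-1.19), Mixl1 (-0.50) and Mesp1 (-0.39, dim) fell, and Msgn1 and Tbx6 were not called. Neural progenitor genes had 7 of 34 higher (20.6%) and 9 lower (26.5%), and the 12-array spread called 3 and 3. The 9 falls became 4 with the scrambled arrays alone, 4 without either RA array, 5 without ESC replicate 2 and 16 with arrays centred. Nes was up by 2.02, Zic2 down at -2.01, Sox1 at -0.38 and Pax6 at 0.60, not called (adjusted p = 0.0719). Neuronal genes had 6 of 25 higher and 9 lower, and 4 and 2 with the 12-array spread. Stmn2, a tubulin regulator of neurons, read 12.65 and 12.65 in ESC and 8.81 and 9.11 in RA, and Ina fell by 3.24, while Isl1, Sst (2.71) and Syt1 (2.62) rose. Neural crest genes had 7 of 15 higher and 5 lower, and 3 and 1 with the 12-array spread. Among the risen ones were Sox9 (3.55), Ednrb (2.94) and Snai2 (2.68), among the falls Foxd3 and Tfap2c (-1.93), and Sox10 was not called (-0.03).

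Extraembryonic endoderm genes rose in 20 of 33 cases and fell in 3, with 6 of the 20 called by the 12-array spread. Dab2, an endocytic adaptor of primitive endoderm, read 8.08 and 7.98 in ESC and 12.08 and 11.96 in RA. Gata6 rose by 4.67 and Plat by 4.84, Gata4 by 1.48, Sox7 by 0.88 and the basement membrane collagens Col4a1 and Col4a2 by 1.79 and 2.02. The visceral endoderm transport genes were mixed. Cubn rose by 2.19 and Ttr by 1.89, Apoe fell by 1.66 and Hnf4a by 1.43, and Lrp2 (0.09), Apoa1 (0.10) and Amn (-0.14) were not called. Sox17 stayed dim and was not called (0.39, adjusted p = 0.0512). Of the trophoblast genes 10 of 17 rose, 8 of them also with the 12-array spread, led by Gata3 (4.10), Gata2 (2.87), Plac1 (2.63) and the keratins Krt7, Krt18 and Krt8 (1.75 to 2.00), whereas the stem cell factors of that lineage did not rise: Cdx2 (-0.08), Elf5 (-0.04, dim) and Tead4 (-0.12) were not called and Eomes and Tfap2c fell. Definitive endoderm genes had 6 of 18 higher, 3 lower and 9 not called, and 2 and 0 with the 12-array spread. The median of that list was 0.20, and 0.002 with arrays centred. Foxa1, Foxa2 (1.26) and Shh (1.46) were among the risen ones, and Trh (-4.19) and Epcam among the falls.

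Genes of mesenchymal cells made up a further block of rises. Mesenchymal regulators and cadherins rose in 20 of 25 cases (80.0%) and fell in 2, and 12 of the 20 were called with the 12-array spread. Cdh2 read 8.18 and 7.29 in ESC and 11.53 and 11.51 in RA, and Cdh11 and Cdh6 (3.50) rose with it. Zeb2 rose by 3.32, Twist1 by 3.05, Snai2 by 2.68 and Zeb1 by 1.39, and Vim, vimentin, by 1.10. Fn1, fibronectin, was not called (-0.12). The epithelial list, by contrast, was split, with 8 of 23 higher and 7 lower. Cdh1, E-cadherin, read 12.17 and 12.32 in ESC and 11.74 and 11.57 in RA, a difference of -0.59 beside the 3.79 of Cdh2. Esrp1 (-2.31), a splicing regulator of epithelia, Grhl2 (-2.08) and Epcam (-1.34) fell, while the keratins rose. Of the 8 rises 5 were called with the 12-array spread, and of the 7 falls none. The 4 scrambled arrays alone gave 8 higher and 5 lower.

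Collagens and matrix genes rose in 32 of 38 cases (84.2%) and none fell, with 18 of the 32 called by the 12-array spread. Dcn read 6.11 and 5.84 in ESC and 11.15 and 11.18 in RA. Tnc, tenascin C, rose by 4.02, Fbn2 by 3.98, Postn by 2.66, Bgn by 2.43, Col3a1 by 1.69 and Col1a1 by 1.00, and the binding proteins of insulin-like growth factors Igfbp5 (4.29), Igfbp4 (2.91), Igfbp7 (2.54) and Igfbp3 (2.26) rose too. Smooth muscle contractile genes rose in 14 of 16 cases (87.5%), 9 of them also with the 12-array spread. Acta2 read 10.56 and 10.01 in ESC and 13.35 and 13.02 in RA, and Tagln read 9.32 and 9.39 in ESC and 12.51 and 11.95 in RA. Cnn1 rose by 2.72 and Myl9 by 2.68. Des, desmin, was not called (-0.53), and 1 member of the list was called lower with arrays centred. Markers of feeder fibroblasts, endothelium and blood were checked beside these lists. Of 10 fibroblast markers 7 were called higher and 1, Thy1, lower, and the mean level of the 10 was 6.76 and 6.86 in the ESC arrays and 7.63 and 7.66 in the RA arrays. The fibroblast genes Dpt, S100a4 and Lum were below the table's median on all 4 arrays. Of 5 endothelial markers Cdh5 (0.95) and Emcn (1.13) were called higher and Tek (-1.92) and Vwf (-1.17) lower, and their mean was 6.89 and 6.95 in ESC and 6.54 and 6.81 in RA. Of 5 blood markers 1 was called higher and 2 lower, with a mean of 6.12 and 6.09 in ESC and of 5.68 and 5.86 in RA. The part of other cell types in the mesenchymal rises was not tested.

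**Figure D4:**
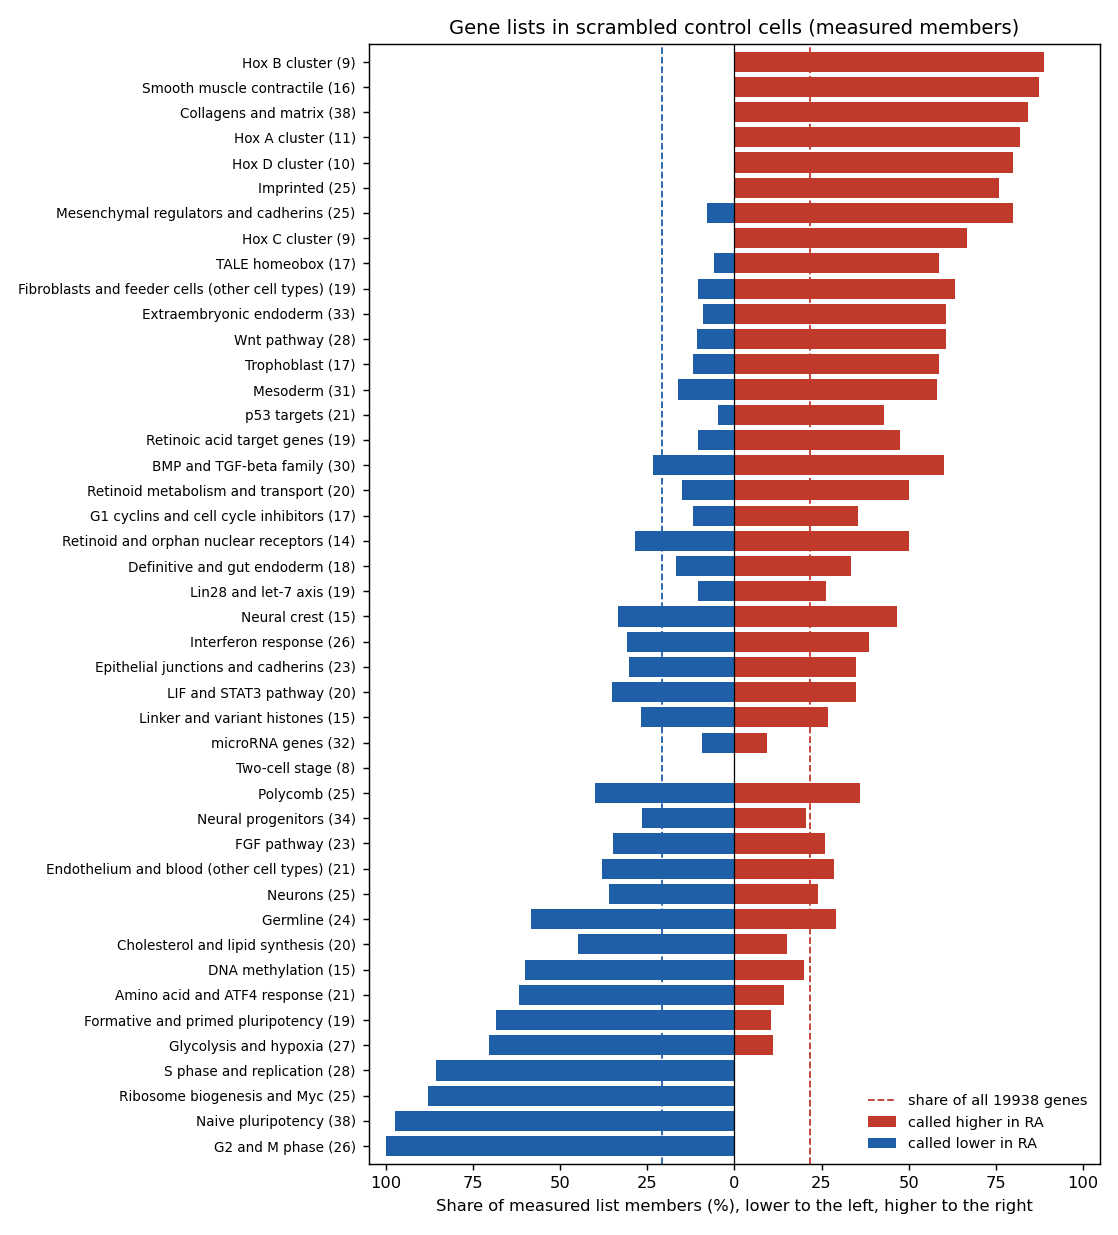
Share of the measured members of each of 44 gene lists (number measured in brackets) called higher in RA (red, to the right) or lower (blue, to the left) in scrambled control cells; the dashed lines mark the shares over all 19938 genes, 21.7% and 20.8%. Hox, smooth muscle, matrix, mesenchymal and imprinted lists reach 66.7% or more on the right, and the naive pluripotency, S phase, G2 and M phase and ribosome biogenesis lists 85.7% or more on the left.

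In the BMP and TGF-beta family 18 of 30 genes rose and 7 fell, and the 12-array spread called 11 and 3. The TGF-beta ligand Tgfb2 read 7.44 and 7.58 in ESC and 11.89 and 11.82 in RA, Tgfb3 rose by 3.35, Bmp5 by 3.02, Bmp2 by 1.96 and the BMP target genes Id1, Id2 and Id3 by 1.03 to 1.31. The 7 that fell held the Nodal arm, with Nodal (-2.12), its co-receptor Tdgf1 (-3.98), Gdf3 (-2.91), Lefty1 (-1.82) and Lefty2 (-2.50), together with Tgfb1 and Inhbb. Wnt pathway genes rose in 17 of 28 cases and fell in 3, of which the 12-array spread called 8 and 1. The receptors Fzd2 (3.23), Fzd1 (2.57) and Fzd7 (1.30), the ligand Wnt5a (2.84), the antagonists Dkk1 (1.99), Dkk2 (2.98) and Sfrp1 (1.74) and the agonist Rspo3 (2.67) rose. Of the target genes, Axin2 rose by 0.45, kept in 1 of 4 fits without an array and lost with arrays centred, Sp5 was not called (0.15), and Lef1 (-0.53) and Notum (-1.56) fell. The FGF list had 6 of 23 higher and 8 lower, and 3 and 2 with the 12-array spread. Fgf4, the autocrine ligand of stem cells, read 11.75 and 11.61 in ESC and 8.23 and 8.61 in RA, and its readouts Spry4 (-3.84), Etv5 (-2.95), Etv4 (-2.21) and Spry2 (-1.32) fell, while Fgfr2 (2.00), Fgf10 (1.51) and Spry1 (1.31) rose.

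All 26 measured genes of G2 and M phase were called lower, with a median of -0.72 and a range from -1.15 to -0.42, and 25 of the 26 also passed with the 12-array spread. Of 28 S phase genes 24 fell, with a median over the list of -0.76, and 19 of these also with the 12-array spread. Orc1, of the origin recognition complex, read 11.14 and 10.97 in ESC and 9.06 and 9.13 in RA, and Mcm10 fell by 1.59 and Pola1 by 1.37. Of 17 G1 cyclins and cell cycle inhibitors 6 were higher, 2 lower and 9 not called, and 3 of the rises were called with the 12-array spread. The inhibitors Cdkn2b (2.24), Cdkn2a (2.00) and Cdkn1c (1.89) were among the risen ones. The cyclin Ccnd2 read 10.00 and 7.75 on the 2 ESC arrays and 12.08 and 12.35 in RA, so that its rise of 3.34 carried an SE of 0.63. Ribosome biogenesis genes fell in 22 of 25 cases, with a median of -0.82, 8 of them also with the 12-array spread. Rrp9 fell by 1.59, Dkc1 by 1.30 and Mycn by 1.20. Genes of glycolysis and hypoxia fell in 19 of 27 cases, 15 also with the 12-array spread. Ldha, lactate dehydrogenase A, read 13.39 and 13.40 in ESC and 12.27 and 12.24 in RA, Pfkp fell by 3.77, Pdk1 by 2.51 and Slc16a3 by 1.59. Amino acid synthesis and ATF4 response genes fell in 13 of 21 cases, 6 of them also with the 12-array spread, led by the arginine and lysine transporter gene Slc7a3 (-3.63) and the glycine cleavage gene Gldc (-2.87), while Atf3 rose by 1.58. Cholesterol and lipid synthesis had 9 of 20 lower, among them Idi1 (-1.52), and 3 higher, among them Abca1 (1.71). The 12-array spread called 5 and 1 of these, and centring the arrays gave 14 lower.

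The DNA methylation list had 9 of 15 lower and 3 higher, and 4 and 2 with the 12-array spread. Among the hydroxylases Tet1 read 12.72 and 12.60 in ESC and 10.66 and 10.62 in RA, Tet2 fell by 1.10, and Tet3 read 7.61 and 8.05 in ESC and 10.45 and 10.16 in RA, a rise of 2.47. Among the methyltransferases Dnmt3l and Dnmt3b fell and Dnmt1 fell by 0.28, a change kept in 1 of 4 fits without an array. Polycomb genes had 9 of 25 higher and 10 lower, of which the 12-array spread called 2 and 1. Bmi1 (1.91), Cbx8 (1.79), Phc2 (1.26) and Cbx2 (0.94) rose, while Phc1 (-1.50), Eed (-1.21), Pcgf6 (-0.98) and Mtf2 (-0.96) fell, and Cbx7 was not called (0.14). Linker and variant histones had 4 of 15 higher and 4 lower, with 9 higher without ESC replicate 2 and 1 without ESC replicate 1 or RA replicate 1. Macroh2a2 rose by 1.64. Germline genes had 14 of 24 lower, 6 of these also with the 12-array spread, with Sycp3 at 9.56 and 10.14 in ESC and at 6.31 and 6.11 in RA, and 7 higher, none of them with the 12-array spread, and 4 without ESC replicate 2 and 3 without RA replicate 2. None of 8 genes of the 2-cell stage was called by limma, and 1 of them, Pramel7 (-0.66), had an unadjusted p below 0.05.

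Imprinted genes, expressed from 1 parental allele, rose in 19 of 25 cases (76.0%) and none fell, with 11 of the 19 called by the 12-array spread. Beside Dcn, whose allele-specific expression is known from the placenta, Dlk1 read 8.80 and 7.89 in ESC and 12.30 and 12.50 in RA. Igf2 read 9.75 and 10.57 in ESC and 13.17 and 13.21 in RA. In both genes each RA array lay above each ESC array, and the ESC arrays were further apart than the RA arrays. Zim1 (3.74), Plagl1 (3.70), Peg3 (3.05), Nnat (2.97), Grb10 (1.99) and Ndn (1.95) rose as well. Igf2r, the scavenging receptor that is expressed from the opposite allele to Igf2, rose by 1.01. Phlda2, Slc22a18 and Mcts2 had negative differences and were not called, but 2 members of the list were called lower with arrays centred.

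Of the p53 targets 9 of 21 rose, 3 of them also with the 12-array spread, among them Perp (1.54), Plk2 (1.47) and the dim Fas (1.43), while Mdm2 (0.31), Bbc3 (-0.07) and Pmaip1 (-0.21) were not called and Gtse1 fell. The interferon list had 10 of 26 higher and 8 lower (6 and 1 with the 12-array spread, and 5 lower without ESC replicate 2 or RA replicate 1), with Usp18 up by 2.17, B2m by 1.48 and Ifitm1 down, at -1.78.

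Precursor genes of microRNAs were mostly too dim to follow on this array: 30 of 32 lay below the table's median in both states, 3 were called higher and 3 lower, and 1 and 0 with the 12-array spread. In the Lin28 pathway, which blocks maturation of let-7, Lin28a read 11.08 and 10.78 in ESC and 9.53 and 9.60 in RA, Trim71 fell by 1.38, Lin28b was not called, and Hmga2, a let-7 target, rose by 2.73. Of 6 measured let-7 genes, Mirlet7e was the 1 called, at 7.31 and 7.38 in ESC and 8.12 and 8.13 in RA. The mature sequences from RefSeq (GRCm38.p6) of 4 miRNAs whose genes changed are shown with the seed, bases 2 to 8, in capitals. The let-7 and miR-196 seeds overlap with a shift of 1 base, and the other seeds are unrelated.
let-7e-5p: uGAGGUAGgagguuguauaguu
miR-196a-5p: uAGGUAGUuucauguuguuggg
miR-99a-5p: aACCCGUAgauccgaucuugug
miR-302d-3p: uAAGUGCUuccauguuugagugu
Mir196a-1, which lies in the Hox B cluster, rose by 0.85 and Mir99a by 0.56, both dim, and Mir302d, of the stem cell cluster, fell by 0.45 from a dim level. A probe for a precursor does not measure the mature miRNA.

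The 2 RA arrays differed from each other, and several of the 44 lists shifted together between them. Of 38 naive genes, 33 were higher in RA replicate 2 than in replicate 1, by a median of 0.42 units, against 9410 of all 19938 genes. Utf1, for instance, read 9.37 in replicate 1 and 10.70 in replicate 2, and Tdgf1 7.98 and 9.37. All 28 S phase genes were higher in replicate 2, by a median of 0.18. All 16 smooth muscle genes were lower in replicate 2, by a median of 0.43, with Actg2 at 10.41 and 8.76 and Myh11 at 9.26 and 7.88, and only 2 of 21 p53 targets were higher in it. Most Hox genes were also lower in replicate 2: 2 of 11 genes of the A cluster list, 2 of 9 of the C cluster and 1 of 10 of the D cluster list were higher in it, with medians of -0.11, -0.31 and -0.28. The B cluster was mixed, with 5 of 9 higher, and of the retinoid metabolism genes 7 of 20 were higher. These lists kept their direction against ESC on both RA arrays, with medians of the naive genes of -2.79 and -2.35, of the S phase genes of -0.86 and -0.65, and of the smooth muscle genes of 1.91 and 1.14. The ESC arrays differed by more over all genes, at a median absolute difference of 0.151 against 0.116 for the RA arrays. Of 27 glycolysis and hypoxia genes, 24 were higher in ESC replicate 2, by a median of 0.32, with Egln3 at 10.01 and 11.21. Without RA replicate 1 the calls numbered 3317 higher and 2977 lower, and without RA replicate 2 3807 and 3330. With 2 arrays per state these differences between replicates have no test.

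**Figure D5:**
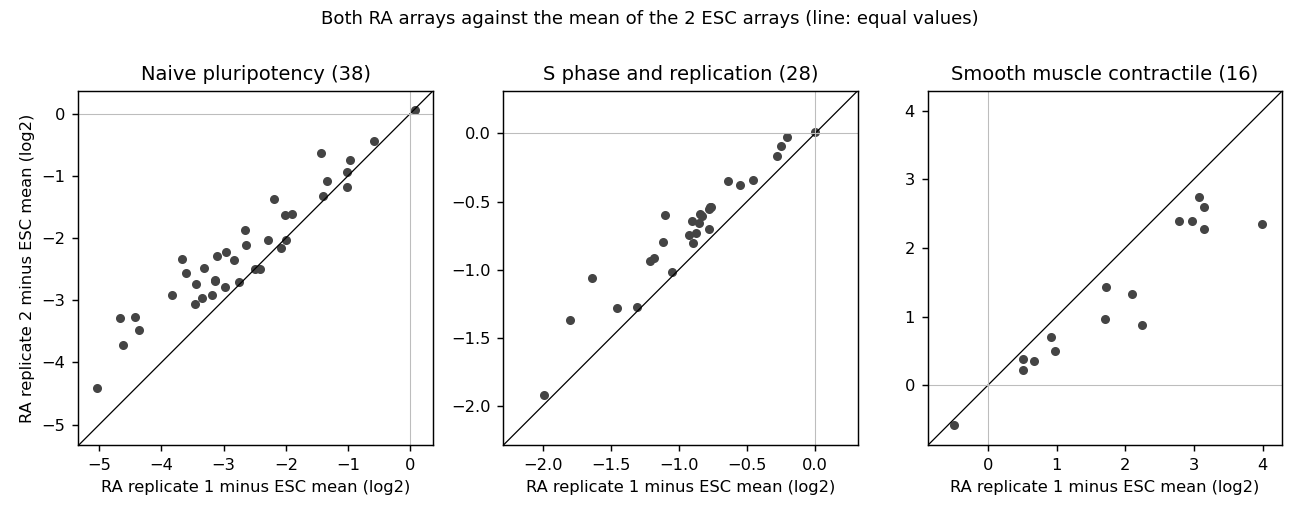
RA replicate 1 (horizontal axis) and RA replicate 2 (vertical axis) of the scrambled control line, each as log2 difference from the mean of the 2 ESC arrays, for 38 naive pluripotency, 28 S phase and 16 smooth muscle genes; the line marks equal values. Naive and S phase genes lie mostly above the line, so closer to ESC in replicate 2, and the smooth muscle genes all lie below it.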

How the data were processed

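Mouse R1 stem cells with a scrambled control or a SET knockdown were measured on 1-colour Affymetrix gene arrays, 1 per sample, from 300 ng of total RNA per the labels. Values were deposited by the authors as log2 intensities; the submitters' processing notes name RMA and no version. RMA corrects background, normalizes between arrays and gives 1 value per probe set. The table held 35556 probe sets, of which 21789 had 1 gene symbol in the platform annotation, 1621 several and 12146 none. A gene took its single-symbol probe set with the highest mean over 12 arrays. Array medians lay between 7.17 and 7.24, and the number of arrays limits precision.

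Limma 3.58.1 in R 4.3.3 fitted 4 groups to 8 arrays (4 residual degrees of freedom) with an intensity trend. Adjustment was by Benjamini-Hochberg across 19938 genes. The fit was tried on simulated data with independent spread between arrays, a setting that leaves out deviations shared by arrays. Alternatives varied the arrays, block, trend, filter, probe set, scaling and replicates. Named genes were the 15 largest called differences each way, among genes whose higher mean reached the median of all values (7.22) and whose states did not overlap, without predicted and RNA-class names, and members of 44 gene lists written from general knowledge. Dim means a higher group mean below that median. The comparison, the members and the lists were chosen with earlier results of these data known. Replicate numbers do not pair the states: replicate differences of ESC and RA correlated at -0.0193 in the scrambled line and at 0.068 in KD1. Same-numbered arrays of the 2 lines did share deviations within a state (0.6329 for ESC, 0.1502 for RA). The 8-array fit behind the calls treats the arrays as independent. As an alternative, a random block of state and number used 1 correlation for both states, estimated at 0.401. Figures were drawn with matplotlib 3.10.9.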

Additional observations from a re-analysis of the deposited data

How the results depend on the processing

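No called gene among the 872 below changed sign under any alternative run, but with arrays centred the medians of the epithelial (0.11 to -0.08), polycomb (0.08 to -0.11), G1 (0.18 to -0.01) and Lin28 (0.05 to -0.15) lists did, and falls came to outnumber rises. With the spread of all 12 arrays the calls fell to 1622 higher and 1129 lower; each KD2 group then holds an array that resembled the other state. Asking for at least 2-fold left 1766 and 1036, and centring each array on its median gave 3270 and 7443. Without each scrambled array in turn the calls ran from 3317 to 4237 higher and from 2977 to 3869 lower, where the lone array's spread is taken from the other groups. The replicate block, which has no support as a pairing, gave 4573 and 4394. The 4 arrays alone, no trend, the mean of probe sets, dim genes left out and a random block of state and number, the last added after seeing the data, stayed within 1.5 times. Of 872 genes, the list members and the largest differences, the 12-array spread ended 328 calls, centring ended 34 and added 62, and the replicate block ended 4 and added 24. The median SE of a difference, 0.124 log2 units, limits the small changes that 2 arrays per state can show.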

Other observations

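Families of genes were also counted by symbol. They were chosen after their values were seen, and the counts are descriptions. All 8 measured ephrins, the membrane-bound ligands of Eph receptors, were called higher, from Efna3 at 0.88 to Efna5 at 3.19 log2 units, and all 8 also with the 12-array spread. Of 13 Eph receptors 4 were higher and 3 lower, with Epha7 at 4.15 and Epha4 at -0.87, and 3 and 1 with the 12-array spread. Of 7 class 3 semaphorins 5 rose, 2 of them also with the 12-array spread, led by Sema3c (4.72) and Sema3a (4.12), next to the rise of 5.37 in their co-receptor Nrp1. Slit2 (1.74) and Slit3 (1.70), the receptors Robo2 (3.42) and Robo1 (1.01) and the netrin receptors Unc5c (3.56) and Unc5b (2.39) rose, while Robo4, of endothelium, fell by 0.92. With the 12-array spread Slit2 and the 3 Robo genes were not called, and the Unc5 genes and Slit3 were. Of 11 plexins and plexin-domain genes 5 were higher and 1 lower, and 3 and 0 with that spread. Of 6 glypicans, heparan sulfate proteoglycans that hold growth factors at the cell surface, 5 rose, 2 of them also with the 12-array spread, with Gpc6 at 4.32. The median of each of these families kept its sign when arrays were centred, and that of the Eph receptors lay near 0 (-0.03, and -0.22 centred). Over all genes 21.7% were called higher and 20.8% lower.

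Other families were mixed or mostly lower. Beta protocadherins were higher in 12 of 22 cases and lower in 0, and cathepsins higher in 8 of 17 and lower in 1. The 12-array spread called 8 and 3 of these rises. Sec genes had 9 of 27 higher and 6 lower, and 1 and 2 with the 12-array spread. Complex I had 13 of 34 lower and 1 higher, proteasome genes 18 of 39 lower and Krüppel-like factors 10 of 17 lower. The 12-array spread called 2, 3 and 3 of these falls. Falls dominated in the families that follow. Of 51 snoRNA genes 46 were called lower and 1 higher, with a median of -1.16, and 24 of the 46 also with the 12-array spread. All 10 measured Utp genes of the U3 processome, all 8 measured genes with a Cct symbol and 17 of 19 nucleoporins were called lower. Their medians were -0.79, -0.44 and -0.63, but the 12-array spread called 3, 2 and 12 of them. The Cct genes encode chaperonin subunits. Among them Cct6b was dim, and chaperonin genes with other symbols were not counted. Cytosolic ribosomal protein genes were lower in 44 of 57 cases, but with a median of -0.29 (-0.49 with arrays centred). The symbol count took in related genes such as Rpl3l, Rpl7l1, Rpl10l and Rpl39l, and the largest falls were those of Rpl10l (-1.98) and Rpl39l (-1.74). Mitochondrial ribosomal protein genes were lower in 50 of 74 cases, with a median of -0.51. The 12-array spread called 7 of the cytosolic and 6 of the mitochondrial falls. Probes for snoRNAs and ribosomal proteins can share sequence with host genes or pseudogenes, so single members are uncertain.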
